A study of Mus musculus with 6 samples.

Results

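The prostanoid synthesis enzymes are the genes whose products turn arachidonic acid into prostaglandins and thromboxane and then inactivate prostaglandins. They were followed across 6 single-cell libraries of marrow, spleen and tumor cells from tumor-bearing mice. The set was taken by gene symbol from the feature lists and holds 10 of 32285 measured genes, all of them present in every library. Ptgs1 (chr2:36230426-36252272, plus strand of the mm10 mouse genome) and Ptgs2 (chr1:150100031-150108227, plus) encode the cyclooxygenases. The prostaglandin E synthase genes are Ptges (chr2:30889471-30929863, minus), Ptges2 (chr2:32395896-32405772, plus) and Ptges3 (chr10:128058954-128077272, plus). Tbxas1 (chr6:38875404-39084585, plus) encodes thromboxane synthase and Ptgis (chr2:167191805-167240604, minus) prostacyclin synthase. Hpgds (chr6:65117293-65144908, minus) and Ptgds (chr2:25466709-25470046, minus) encode the hematopoietic and the lipocalin-type prostaglandin D synthase. Hpgd (chr8:56294585-56321043, plus) encodes the dehydrogenase that inactivates prostaglandins.

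Cyclooxygenases convert arachidonic acid, cut from membrane phospholipids, into the unstable intermediate prostaglandin H2, and the terminal synthase that a cell carries then sets which prostanoid it makes. Ptgs1 is usually described as the constitutive cyclooxygenase and Ptgs2 as the one induced by inflammatory signals, and prostaglandin E2 from Ptgs2 and Ptges is a known product of tumors and of the myeloid cells in them. Cysltr1, the gene altered in these mice, encodes a receptor for cysteinyl leukotrienes, which are made from the same arachidonic acid by a separate enzyme branch.

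Each tissue gave 1 library from Cysltr1-deficient mice bearing EMT6 tumors (EMT6 is a mouse mammary carcinoma line) and 1 from BALB/c WT controls that also carried EMT6 tumors. Cells of 3 mice were pooled for every library, so no library shows the variation between mice. Progenitor cells were selected from marrow, and CD45-bearing cells from tumor and spleen, with immunomagnetic kits; for marrow, tissue and enrichment kit cannot be told apart. Tumor volume, age and how the Cysltr1 allele was made are not given in the sources used here. With 1 library per tissue and genotype there is no test of a difference. The 95% intervals given with levels and ratios cover counting error only and say nothing of the spread between mice. Ratios after a background was taken off, and quotients to a background level, carry no interval.

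The filters left 5990 cells in the tumor library labelled KO and 7900 in the one labelled WT, 7702 and 8315 for spleen and 6057 and 5020 for marrow. Their median depth was 2312 and 3017 UMIs (unique molecular identifiers, the counted RNA molecules) per tumor cell, 3642 and 2918 per spleen cell and 6327 and 12746 per marrow cell. A level is given in CPM: the UMIs of a gene summed over the cells of a class and scaled to 1000000 UMIs in all. Cysltr1 itself went against the labels in 2 tissues: the spleen library labelled KO held 33.2 CPM and the one labelled WT 6.73 CPM, the marrow pair 24.6 and 4.75 CPM, and the tumor pair 7.17 and 10.0 CPM. The cause was not tested, and whether a 5' or 3' tag lies outside the altered part of the gene is not known. The genotype of a library is therefore used below only as its label. Libraries shared between 0.786% and 1.43% of the barcodes of the smaller one. Cells were placed in classes by marker genes, and 47.6% and 49.0% of the tumor cells stayed without a class, 3.77% and 5.03% in spleen and 10.5% and 8.96% in marrow. The tumor libraries had little Ptprc, the gene of CD45, at 95.3 CPM in the library labelled KO and 72.7 CPM in the one labelled WT, against 969 and 820 CPM in spleen.

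Across whole libraries the enzymes separated the tissues more than the labels. Ptgs2 had 867 CPM in the tumor library labelled KO and 771 CPM in the one labelled WT, 39.6 and 42.6 CPM in spleen and 4.40 and 3.71 CPM in marrow. Ptges had 115 and 77.1 CPM in tumor, 0.367 and 0.807 CPM in spleen and 1.62 and 0.968 CPM in marrow. Both tumor libraries thus held far more of the inducible cyclooxygenase and its partner synthase than any other library. Hpgd ran the other way, with 10 UMIs in the whole tumor library labelled KO and 0 in the one labelled WT, but 16.9 and 8.77 CPM in spleen and 2.41 and 3.25 CPM in marrow. Ptgs1 was more even, at 42.3 and 36.4 CPM in tumor, 12.1 and 15.6 CPM in spleen and 43.3 and 41.1 CPM in marrow. Levels of different genes are not compared, because the counts are not scaled to length or read end.

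**Figure D1:**
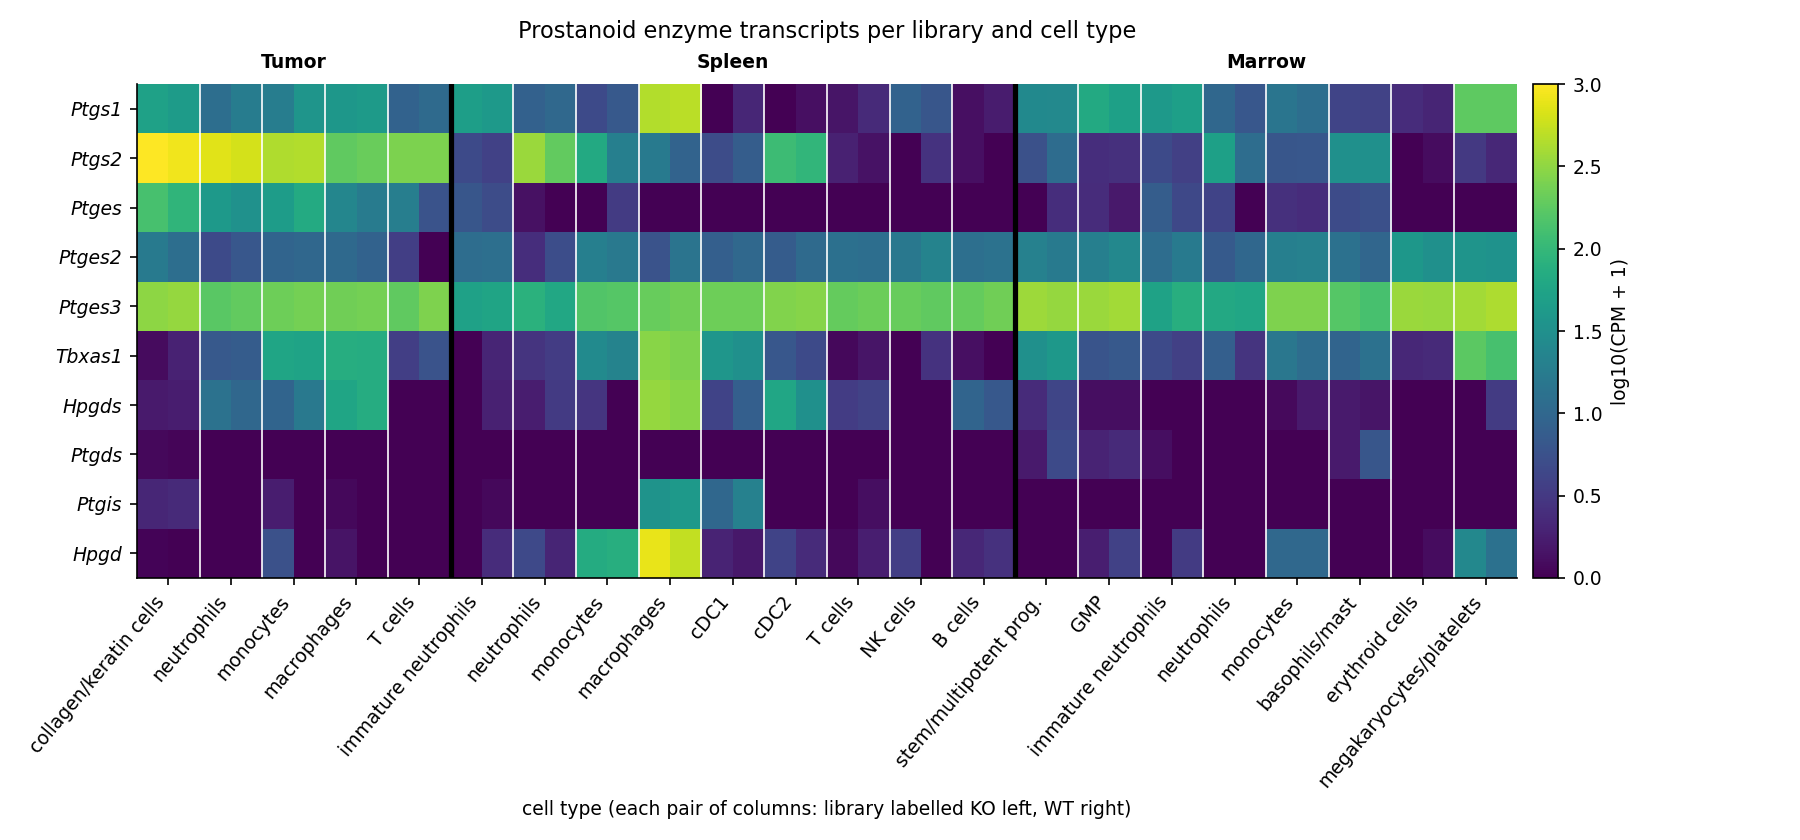
The level of each of the 10 enzymes (colour, log10 of CPM + 1) in the cell classes named on the axis, by library. Each has at least 50 cells in both libraries of its tissue. Regulatory T cells, plasma cells, plasmacytoid dendritic cells, tumor natural killer cells, the tumor innate lymphoid gate and cells without a class are not drawn. Measured Ptgs2 is high in all tumor classes drawn, also in T cells, where it is taken as background. Ptges is highest in the collagen- or keratin-expressing cells, with 7 and 1 UMIs in tumor T cells labelled KO and WT. Ptgs1, Hpgds, Tbxas1 and Hpgd share their highest levels in spleen macrophages.

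The 250 bases before the RefSeq start of 4 enzymes are shown because these genes carry the main tissue differences: Ptgs2 and Ptges, high in tumor, and Ptgs1 and Hpgd, high in spleen macrophages. Sequences are from RefSeq on GRCm38.p6, read 5' to 3' on the gene's strand, with capitals marking the motifs searched on both strands. These were the TATA box TATAAA, the E-box CACGTG, the cyclic AMP response element TGACGTCA and its part CGTCA, the NF-kappaB-like GGGNNTTCC, the C/EBP-like TTGCNNAA and the GC box GGGCGG. The GC box also reads as CCGCCC on the other strand.
Ptgs2, chr1:150099781-150100030, plus strand: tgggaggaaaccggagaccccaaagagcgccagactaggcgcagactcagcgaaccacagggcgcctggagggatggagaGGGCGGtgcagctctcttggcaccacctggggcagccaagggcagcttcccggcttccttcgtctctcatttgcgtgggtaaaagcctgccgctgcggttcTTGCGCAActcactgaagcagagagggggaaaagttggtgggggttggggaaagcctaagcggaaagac
Ptges, chr2:30903298-30903547, minus strand: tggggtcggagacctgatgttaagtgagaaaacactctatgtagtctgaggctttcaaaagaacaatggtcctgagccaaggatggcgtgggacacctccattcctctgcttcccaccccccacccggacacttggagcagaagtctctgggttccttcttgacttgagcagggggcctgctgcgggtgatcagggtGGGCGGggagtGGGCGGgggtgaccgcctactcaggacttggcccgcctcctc
Ptgs1, chr2:36230176-36230425, plus strand: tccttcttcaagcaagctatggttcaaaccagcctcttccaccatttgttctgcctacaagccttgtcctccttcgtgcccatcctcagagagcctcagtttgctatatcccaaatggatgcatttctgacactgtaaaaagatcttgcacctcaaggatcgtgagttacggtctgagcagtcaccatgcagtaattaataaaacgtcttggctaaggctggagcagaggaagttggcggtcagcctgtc
Hpgd, chr8:56294302-56294551, plus strand: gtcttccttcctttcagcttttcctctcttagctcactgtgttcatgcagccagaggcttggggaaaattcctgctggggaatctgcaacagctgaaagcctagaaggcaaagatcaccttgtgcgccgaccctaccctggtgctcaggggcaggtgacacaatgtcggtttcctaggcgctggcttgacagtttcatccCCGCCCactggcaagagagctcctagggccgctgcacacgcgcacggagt
The Ptgs2 window held TTGCGCAA, a match to TTGCNNAA, starting 69 bases before the start, and GGGCGG at 170 bases; it also overlaps exons of the antisense gene Ptgs2os. The Ptges window held GGGCGG at 53 and 42 bases, the Hpgd window held its complement at 50 bases, and the Ptgs1 window held none of the motifs. Of all 32851 promoters of the same length, 9.56% held TTGCNNAA and 32.7% held GGGCGG, so these are common letters and describe the windows only. The cyclic AMP response element was in 1.55% of promoters, its part CGTCA in 17.8%, and GGGNNTTCC in 4.98%. Among the other members with a listed promoter (9 of 10 in all), Tbxas1 held TATAAA, found in 12.4% of promoters, and Ptges2 held CACGTG, found in 6.02%. Hpgds also held TTGCNNAA, and Ptges3 held GGGCGG or its complement at 3 places.

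Ptgs1, the constitutive cyclooxygenase, was highest in macrophages of the spleen, with 449.7 CPM in the library labelled KO (398 to 506) and 484 CPM in the one labelled WT (416 to 559.7). Marrow megakaryocytes, which make platelets, came next with 181 and 179 CPM. Neither pair differed beyond its counting intervals, and the megakaryocyte list of 8 markers summed to 0 and 277 CPM in the spleen macrophages. Granulocyte-monocyte progenitors of marrow had 65.7 CPM in the library labelled KO and 50.01 CPM in the one labelled WT, a ratio of 1.31 (1.23 to 1.41) that lay between 0.725 and 1.90 in their single clusters. Collagen- or keratin-expressing tumor cells had 51.2 and 43.3 CPM. At the low end were spleen T cells, with 0.467 and 1.27 CPM, spleen B cells, with 0.332 and 0.705 CPM, and spleen dendritic cells type 2, with 0 and 1 UMIs.

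Along the neutrophil lineage Ptgs1 and Ptgs2 ran in opposite directions. Immature neutrophils, defined by granule genes such as Ltf and Camp, had 47.0 and 39.4 CPM of Ptgs1 in the spleen libraries labelled KO and WT, and 41.4 and 47.8 CPM in marrow. In neutrophils defined by late genes such as Cxcr2 and Csf3r, Ptgs1 had 11.1 and 17.3 CPM in tumor, 7.62 and 9.42 CPM in spleen and 9.12 and 5.44 CPM in marrow. All 6 late-neutrophil values lay below all 4 immature ones. Ptgs2 in the same immature cells had 3.78 and 2.78 CPM in spleen and 3.74 and 2.68 CPM in marrow, and granulocyte-monocyte progenitors had 1.48 and 1.57 CPM. These are the lowest Ptgs2 levels of the lineage.

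In late neutrophils the measured level of Ptgs2, the inducible cyclooxygenase, differed by tissue. It was 725 CPM in tumor neutrophils of the library labelled KO (680.4 to 772) and 643 CPM in those labelled WT (596 to 692). Spleen neutrophils had 349.9 CPM (328 to 373) and 187 CPM (176 to 199), and marrow neutrophils 49.7 CPM (36.7 to 65.7) and 10.9 CPM (3.99 to 23.7). Within each label the order of the measured levels was tumor, spleen, marrow, with no overlap of the intervals. A background calculation was chosen after seeing the data: the level in tumor lymphocytes was taken off. With it the gap between tumor and spleen closed or turned. It lowered Ptgs2 only and left the UMI total whole, free RNA included. The lowered tumor levels are thus low by an amount not measured, and they do not settle the order of tumor and spleen. At the ratio of Ptgs2 to collagen and keratin RNA in tumor T and natural killer cells of the same library, tumor neutrophils would hold 453 CPM for KO and 443 CPM for WT. Less these amounts their Ptgs2 was 272 and 199.9 CPM, which was 0.776 times the spleen level for KO and 1.07 times for WT. With T cells alone as background these values were 0.66 and 0.644. No interval was computed for these ratios, so their side of 1 is not settled. Tumor stayed above marrow in each case, by 4.65-fold or more for KO and 11.1-fold or more for WT. Spleen over marrow was 7.05-fold (5.29 to 9.59) in the libraries labelled KO and 17.2-fold (7.88 to 47.0) in those labelled WT; the second rests on 6 UMIs in marrow, of which none was left after thinning every cell to 1000 UMIs. With classes taken from clusters these 2 log2 ratios were 3.60 and 4.66, against 2.79 and 3.99.

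As measured, tumor over spleen neutrophils was 2.07-fold (1.89 to 2.27) for the label KO and 3.43-fold (3.12 to 3.78) for WT. Of the enzymes with at least 30 UMIs over both libraries, 3 of 4 were past 1.5-fold for KO, where 71.3% of all such genes were, and 4 of 5 for WT, where 70.4% were. All of those enzymes were higher in tumor as measured, with no background taken off, but most genes differed between these sums, so the count is near the background. Scaling by TMM (a trimmed mean that centres the genes) shifted these comparisons by -0.32 and -0.71 on the log2 scale and left Ptgs2 log2 ratios of 0.73 and 1.07, with 3 of 5 enzymes past 1.5-fold for WT. Of the genes past 1.5-fold, 50.5% were higher in tumor for KO and 58.2% for WT, against 41.1% and 37.0% after that scaling. The neutrophil marker list of 9 genes summed to 8325 and 11133 CPM in the tumor gate and to 14549 and 25251 CPM in the spleen gate.

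Between the labels, Ptgs2 in spleen neutrophils was 1.87-fold higher in the library labelled KO (1.71 to 2.04), with a UMI in 37.8% of 1086 cells, against 22.5% of 2301 cells in the one labelled WT. After thinning the shares were 23.3% and 14.1%, and spleen T cells, which mark the free RNA of the library, had a UMI in 0.131% and 0.137% of cells. Both neutrophil marker lists were lower in the KO-labelled gate. The immature list of 8 genes summed to 832 CPM there and to 2826 CPM in the WT-labelled gate, and the late list to 14549 and 25251 CPM. Whether the gated cells differed in stage was not tested. The gate fell into 2 main clusters, made without the 10 enzymes. In the Ptgs2-rich one, with 423 and 587 gated cells, the levels were 562 and 482 CPM, a ratio of 1.17 (1.02 to 1.33). In the other, with 646 and 1527 cells, they were 268 and 164 CPM, a ratio of 1.64 (1.45 to 1.85). Within clusters the ratio was thus smaller than over the whole gate, and smallest in the cluster with most Ptgs2 per cell.

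Marrow neutrophils had 49 Ptgs2 UMIs in 494 cells labelled KO and 6 in 147 cells labelled WT, a ratio of 4.57 (1.95 to 13.05); the log2 ratio of 2.09 was 2.91 as a mean over cells. Tumor neutrophils had a ratio of 1.13 (1.02 to 1.24) as measured, 1.36 less the background of T and natural killer cells and 1.92 less that of T cells alone, and after thinning 41.7% and 43.8% of cells had a UMI. Spleen monocytes, a small class of 109 and 93 cells, had 65.5 CPM (70 UMIs) for KO and 18.8 CPM (16 UMIs) for WT, a ratio of 3.48 (1.999 to 6.41). The UMIs lay in 20 cells for KO and 8 for WT. After thinning, 4 and 1 cells held a UMI, or 3.67% (1.01% to 9.13%) and 1.08% (0.027% to 5.85%), intervals that overlap. The neutrophil list summed to 321 and 488 CPM in those monocytes, lower for KO. Spleen dendritic cells type 2 held more Ptgs2 than the monocytes, at 112 CPM (226 UMIs) for KO and 94.0 CPM (281 UMIs) for WT. Marrow basophils and mast cells had 31.1 CPM (49 UMIs) for KO and 30.9 CPM (64 UMIs) for WT. The 3 named classes in which measured Ptgs2 was past 1.5-fold and higher for KO were marrow neutrophils, spleen neutrophils and spleen monocytes.

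**Figure D2:**
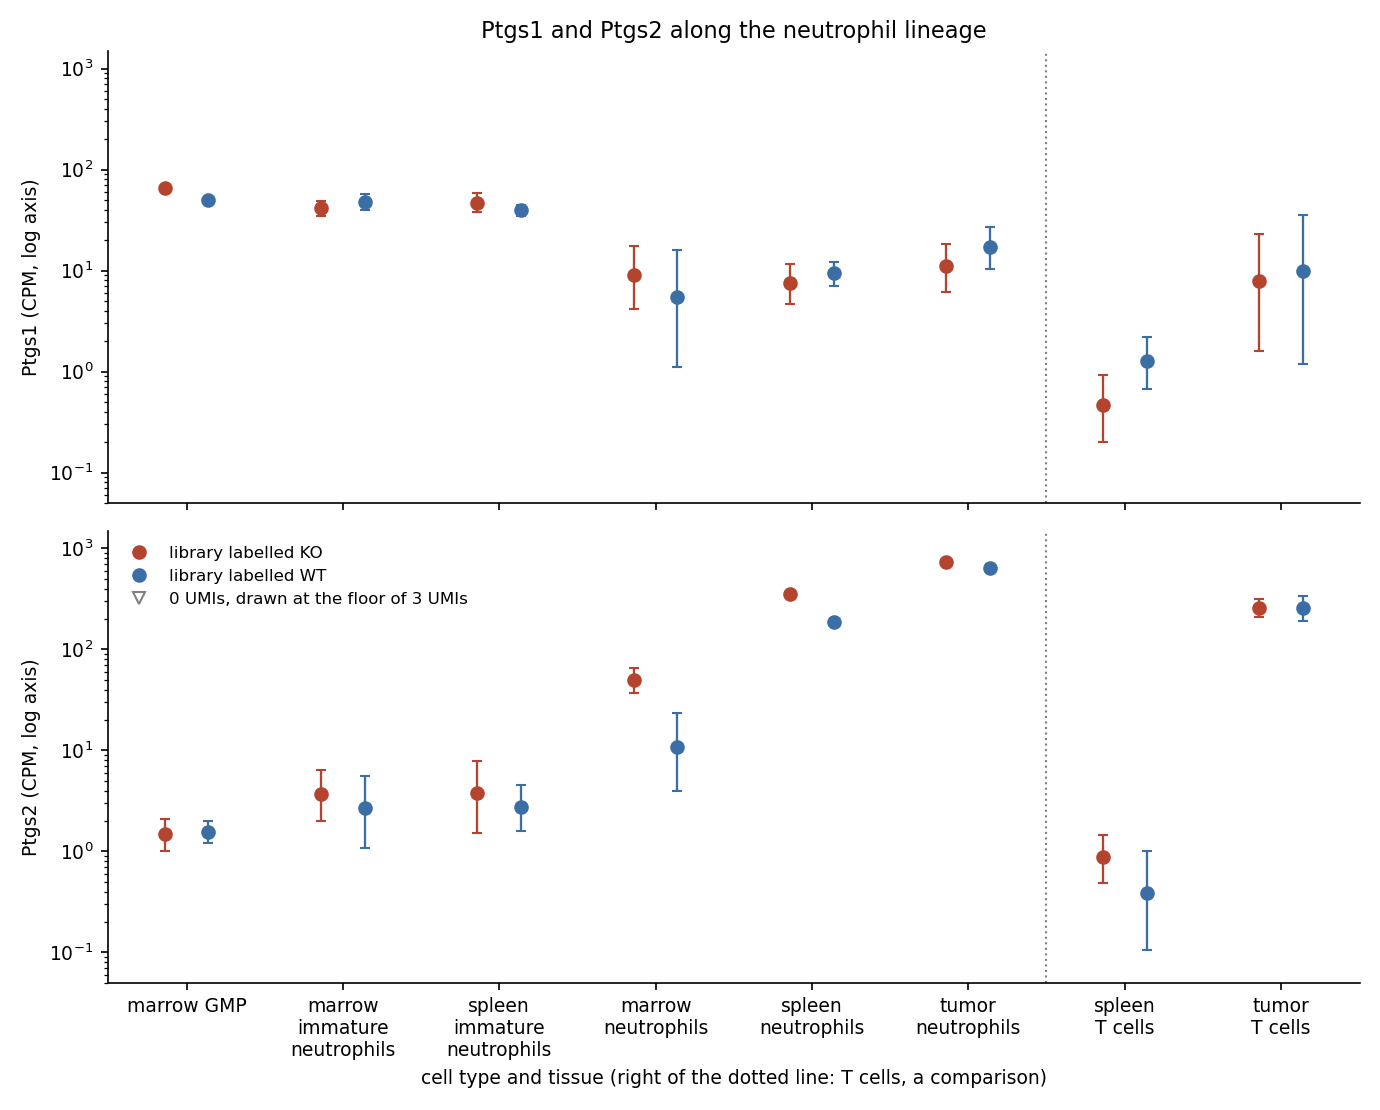
Ptgs1 and Ptgs2 (CPM, log axis) in granulocyte-monocyte progenitors, immature neutrophils and late neutrophils, KO-labelled libraries left of WT-labelled ones, with 95% counting intervals and T cells of spleen and tumor beside them. Ptgs1 is highest in the early stages, and measured Ptgs2 is highest in the late neutrophils of tumor, where tumor lymphocytes also hold it.

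Tumor lymphocytes gave the background for Ptgs2 in tumor. Tumor T and natural killer cells together, lymphocytes not known for Ptgs2, had 234 CPM (147 UMIs in 206 cells) in the library labelled KO and 168 CPM (68 UMIs in 96 cells) in the one labelled WT. The T cells alone had 256 and 255 CPM, and the natural killer cells 200.1 and 79.8 CPM, the second from 16 UMIs in 35 cells. Spleen T cells had 0.876 and 0.392 CPM. Tumor lymphocytes also held 299 and 316 CPM of 15 collagen and keratin genes that they should lack. Tumor macrophages, at 183 and 205 CPM of Ptgs2, lay below the pooled lymphocytes for KO, above them for WT and below the T cells for both, and after thinning 21.1% and 21.4% of them had a UMI, against 26.6% and 24.6% of tumor T cells. The share of macrophages with a UMI thus lay below that of the T cells, and no Ptgs2 beyond free RNA is read from it. Their level stood above that of spleen macrophages, at 16.1 CPM (10 UMIs) and 8.06 CPM (3 UMIs).

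If the Ptgs2 of each class came with its collagen and keratin RNA at the lymphocytes' ratio, tumor neutrophils would hold 453 and 443 CPM for KO and WT, and the measured levels were 1.60 and 1.45 times these values. For tumor monocytes, measured at 432 and 449.9 CPM, the same quotients were 2.41 and 1.92, and for macrophages 1.43 and 1.35. With T cells alone as background the quotients were 1.47 and 1.23 for neutrophils, 2.21 and 1.63 for monocytes and 1.32 and 1.14 for macrophages. All 12 quotients were above 1 and none reached 3, and the part of free RNA in these levels was measured only through this ratio. No interval was computed for the quotients, so those near 1 are not set apart from it. The T cell background for WT rests on 52 Ptgs2 UMIs in 61 cells, or 255 CPM (190 to 334). Collagen- or keratin-expressing cells, a class with 4.17 and 6.45 CPM of Ptprc that holds carcinoma cells and fibroblasts together, had the highest Ptgs2 of any named class: 974.9 CPM in 669 cells labelled KO and 862 CPM in 1369 cells labelled WT, a ratio of 1.13 (1.104 to 1.16). In 4 clusters of these cells the ratio was 1.27, 1.24, 1.16 and 0.87. Tumor cells without a class held 53.4% and 52.8% of the Ptgs2 UMIs of their libraries.

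**Figure D3:**
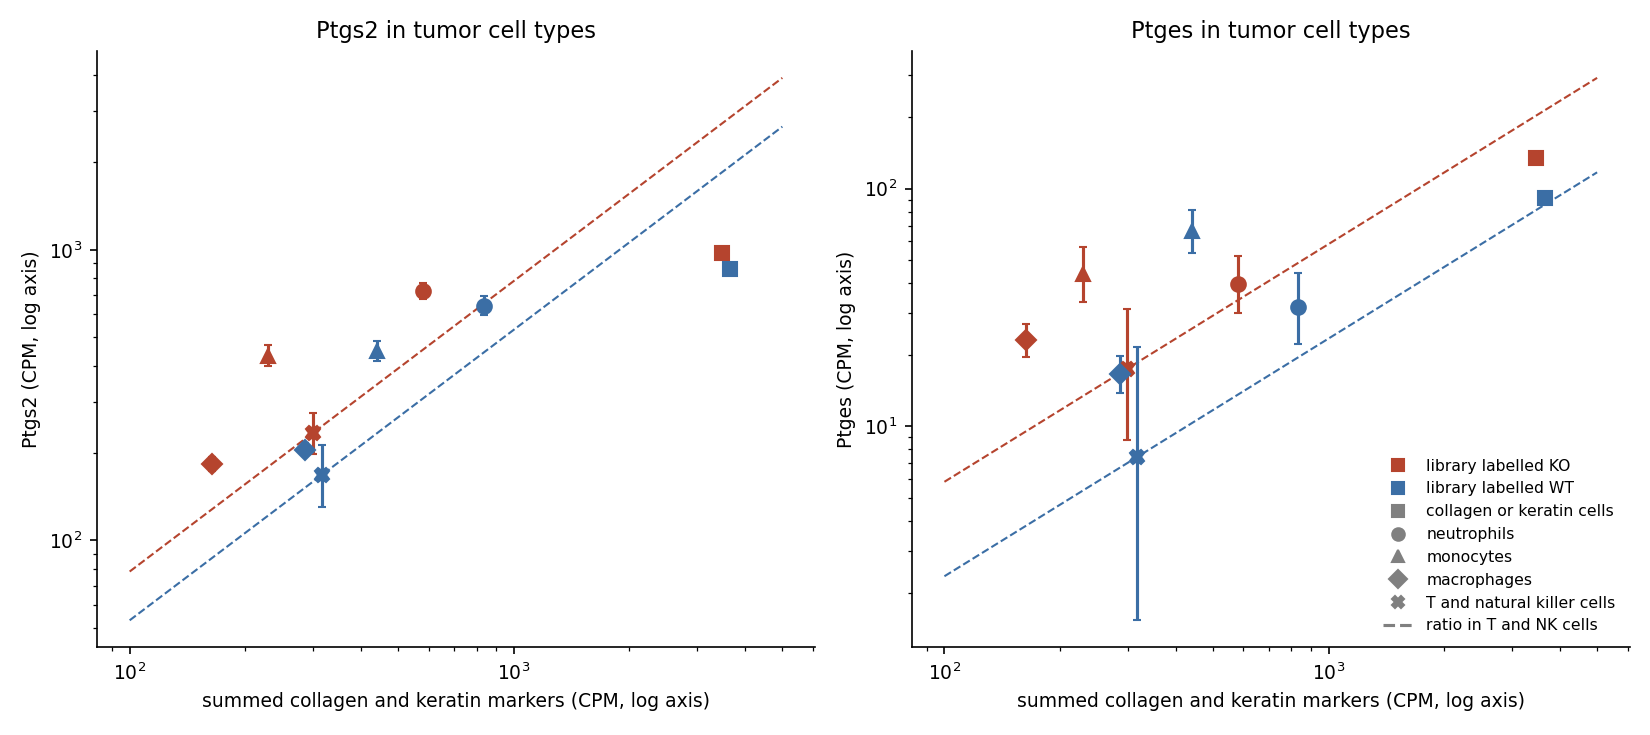
Ptgs2 level (left) and Ptges level (right) against the summed level of 15 collagen and keratin genes (CPM, log axes) in tumor cell classes of the KO-labelled and WT-labelled libraries, with 95% counting intervals and a dashed line at the ratio of the T and natural killer cells. Neutrophils, monocytes and macrophages lie above the line of their own library, and the collagen- or keratin-expressing cells lie far to the right.

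Ptges, the inducible prostaglandin E synthase usually paired with Ptgs2, was nearly limited to tumor. Collagen- or keratin-expressing cells had 135 CPM in the library labelled KO (128 to 141) and 91.8 CPM in the one labelled WT (87.5 to 96.3), a ratio of 1.47 (1.37 to 1.57). In the 4 clusters the ratio was 1.21, 1.40, 1.65 and 1.11, below 1.5-fold in 3 of them, and the last had an interval of 0.976 to 1.27 that includes 1. With classes taken from clusters the log2 ratio of 0.55 was 0.69, which is past 1.5-fold. Tumor T and natural killer cells had 17.5 CPM (11 UMIs) and 7.42 CPM (3 UMIs). Tumor monocytes stood well above them at 44.0 and 66.4 CPM, which is 3.28 and 6.42 times the level at the lymphocytes' ratio to collagen and keratin RNA.

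In tumor neutrophils Ptges had 39.8 CPM (54 UMIs) for KO and 31.8 CPM (35 UMIs) for WT, against 1 and 0 UMIs in 1086 and 2301 spleen neutrophils. For WT that is at least 61.9-fold higher in tumor, set against a floor of 3 counts in spleen, and for KO the ratio was 109.7 (18.9 to 4413). Against the lymphocytes' ratio, however, the neutrophil Ptges was only 1.17 and 1.63 times as high. Tumor macrophages had 23.1 and 16.6 CPM, and spleen macrophages had 0 UMIs in 180 and 99 cells. Spleen immature neutrophils held a little Ptges, at 5.40 CPM (10 UMIs) for KO and 3.99 CPM (23 UMIs) for WT. In marrow the gene was sparse too. Immature neutrophils there had 6.61 CPM (23 UMIs) and 3.44 CPM (9 UMIs), and basophils and mast cells 3.81 CPM (6 UMIs) and 4.35 CPM (9 UMIs).

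The other 2 prostaglandin E synthase genes were broadly present. Ptges3, which also encodes the co-chaperone p23 of Hsp90, had 299 and 340.3 CPM in tumor, 182 and 164 CPM in spleen and 296 and 338 CPM in marrow. Its low levels included those of immature neutrophils, at 50.8 and 55.5 CPM in spleen and 52.6 and 74.2 CPM in marrow, and of late neutrophils in marrow, at 62.8 and 58.0 CPM. It was higher in tumor than in spleen neutrophils, at 172 and 188 CPM against 81.6 and 62.2 CPM. After TMM scaling the log2 ratio of that pair was 0.88 for WT in place of 1.58. The part of free RNA in the tumor neutrophil level was not measured. Collagen- or keratin-expressing tumor cells had 305 and 338 CPM of Ptges3. Spleen T cells held it too, at 193 and 208 CPM, so lymphocytes give no background for it. Ptges2, a membrane-associated synthase, was highest in marrow erythroid cells, at 37.5 and 30.7 CPM, and megakaryocytes, at 34.8 and 32.5 CPM. It was lowest in neutrophils, with 1.45 and 4.11 CPM in spleen.

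Tbxas1, which makes the platelet activator thromboxane A2, had its highest levels in spleen macrophages and marrow megakaryocytes, as Ptgs1 did. Tumor macrophages had 72.1 and 71.2 CPM in the libraries labelled KO and WT, where 1 Tbxas1 UMI was found in each library's tumor lymphocytes. Spleen macrophages had 292 and 263 CPM, and marrow megakaryocytes 176 and 133 CPM, a ratio of 1.33 (1.08 to 1.63). Monocytes had 57.6 and 54.0 CPM in tumor, 26.2 and 21.2 CPM in spleen and 14.3 and 10.8 CPM in marrow, so the order of tissues was the same under both labels. Marrow stem and multipotent progenitors had 30.9 and 39.1 CPM. Other classes differed from Ptgs1. Spleen dendritic cells type 1 had 37.0 and 30.7 CPM of Tbxas1 but 0 and 2 Ptgs1 UMIs. Marrow granulocyte-monocyte progenitors had only 4.98 and 5.86 CPM of Tbxas1. Exons of Tbxas1, Ptgis and Ptgs1 overlap an annotated gene on the opposite strand, and since the strand setting of the counting is not given, reads of the overlapping pairs cannot be told apart.

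Hpgds, the prostaglandin D synthase of myeloid and mast cells, had 57.8 CPM in tumor macrophages labelled KO and 70.7 CPM in those labelled WT, against 334 and 293 CPM in spleen macrophages. Tumor lymphocytes had no Hpgds UMI. The marrow class of basophils and mast cells had 1 Hpgds UMI in 365 cells labelled KO and 1 in 298 labelled WT. Spleen dendritic cells type 2 had 59.2 CPM (119 UMIs) for KO and 31.4 CPM (94 UMIs) for WT, a ratio of 1.88 (1.42 to 2.495), and 6.49% and 3.65% of the cells had a UMI after thinning. Spleen B cells had 8.29 and 5.64 CPM and spleen T cells 2.40 and 2.94 CPM. Ptgds, the lipocalin-type synthase, was nearly absent outside marrow, where it had 26 and 82 UMIs in all. In the marrow library labelled WT, 54 of these were in granulocyte-monocyte progenitors, 15 in stem and multipotent progenitors and 11 in basophils or mast cells. Ptgis, prostacyclin synthase, was found in spleen macrophages, at 33.9 CPM (21 UMIs) and 40.3 CPM (15 UMIs), and in spleen dendritic cells type 1, at 8.997 CPM (9 UMIs) and 19.7 CPM (36 UMIs). That pair had a ratio of 0.456 (0.193 to 0.965).

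Hpgd, the enzyme that ends prostaglandin signalling, had its highest levels in spleen macrophages and was nearly undetected in tumor. Tumor macrophages had 3 UMIs in 901 cells labelled KO and 0 in 1210 cells labelled WT. Spleen macrophages had 793 CPM (492 UMIs in 180 cells) in the library labelled KO and 535 CPM (199 UMIs in 99 cells) in the one labelled WT. The median depth of macrophages was higher in tumor, at 6264 and 5230 UMIs per cell, against 1615 and 2284 UMIs in spleen. For WT the spleen level was at least 1312-fold that of tumor, set against a floor of 3 counts in tumor. For KO the tumor over spleen ratio was 0.000565 (0.000116 to 0.00166). Tumor monocytes had 6 UMIs, all in 1 cell, for KO and 0 UMIs for WT, spleen monocytes 68.3 and 74.1 CPM and marrow monocytes 9.35 and 9.33 CPM. Marrow megakaryocytes held 22 and 21 UMIs, or 23.9 and 12.2 CPM.

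The whole spleen library labelled KO had 1.93 times the Hpgd of the one labelled WT (1.68 to 2.22), and the macrophage gate held 2.34% and 1.19% of its cells. Within spleen macrophages the ratio was 1.48 (1.26 to 1.76), with a UMI in 73.9% and 58.6% of cells, or 56.2% and 38.0% after thinning. In the 1 cluster with enough such cells it was 1.23 (0.902 to 1.71), an interval that includes 1. Granulocyte-monocyte progenitors went the other way, with 16 UMIs in 9 cells labelled KO and 116 UMIs in 30 cells labelled WT, a ratio of 0.286 (0.158 to 0.484). Few cells carried those counts: 0.445% of the KO-labelled and 1.19% of the WT-labelled class.

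Set side by side, macrophages of tumor held less Ptgs1, Hpgds, Tbxas1 and Hpgd than those of spleen under both labels. Ptgs1 had 37.5 and 42.7 CPM in tumor macrophages labelled KO and WT, against 449.7 and 484 CPM in spleen macrophages. Its tumor over spleen ratio was 0.0833 (0.07 to 0.0992) for KO and 0.0882 (0.0732 to 0.107) for WT. For Hpgds the ratio was 0.173 and 0.241, and for Tbxas1 0.247 and 0.27; thinned cells gave Tbxas1 a log2 ratio of -0.93 in place of -2.00 for KO. Ptges3 was near equal, at 1.11 (0.925 to 1.35) and 1.03 (0.83 to 1.30). Of 8 enzymes with at least 30 UMIs over both libraries, 7 were past 1.5-fold for KO, 3 higher and 4 lower in tumor, where 59.8% of all genes were past it, and 7 for WT, 2 higher and 5 lower, where 59.8% were too, so most genes differed between these sums. The enzymes higher in tumor under both labels were Ptgs2 and Ptges, which stood in tumor macrophages at 1.43 and 1.35 times and 2.42 and 2.47 times the lymphocytes' ratio, and the enzymes lower under both were Ptgs1, Hpgds, Tbxas1 and Hpgd; Ptges2 had 3 and 5 spleen UMIs and took a different side in each. TMM scaling shifted these comparisons by 0.41 and 0.47 on the log2 scale. With it 64.5% and 64.2% of the genes past 1.5-fold were higher in tumor, against 44.4% and 40.8% without, and it left Ptgs1 at -3.14 and -3.01.

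**Figure D4:**
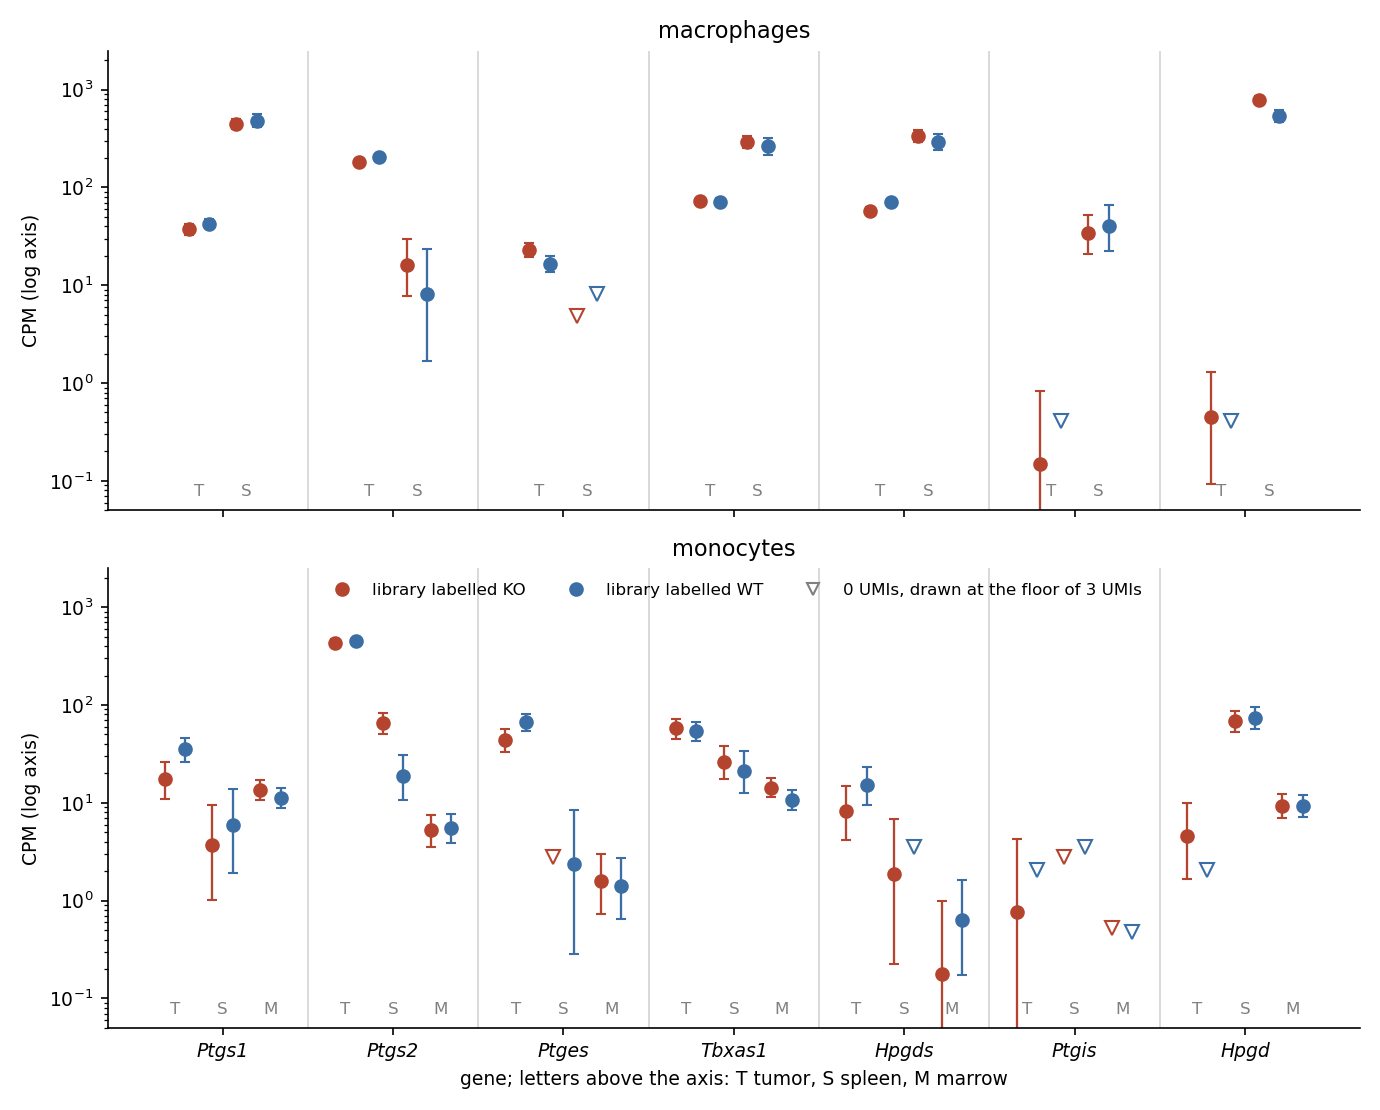
Levels of 7 of the enzymes (CPM, log axis) in macrophages and monocytes of tumor, spleen and, for monocytes, marrow, KO-labelled left of WT-labelled, with 95% counting intervals and open triangles for 0 UMIs at the level of 3 UMIs. Hpgd, Ptgs1, Hpgds and Tbxas1 are higher in spleen macrophages than in tumor macrophages, and Ptgs2 and Ptges lower.

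Between the labels most enzymes stayed within 1.5-fold in each class, and the counts of enzymes are too small to set them apart from all genes. In spleen neutrophils 1 of 3 enzymes passed it (Ptgs2, higher for KO), where 14.7% of all genes did. In marrow neutrophils 1 of 2 did (Ptgs2, higher), where 17.4% of genes did, and in spleen monocytes 1 of 5 (Ptgs2, higher), where 16.6% did. Granulocyte-monocyte progenitors had 2 of 8 enzymes past it, Ptges higher at 1.43 and 0.619 CPM (29 and 26 UMIs) and Hpgd lower, where 2.11% of genes were past it. The Ptges log2 ratio there, 0.586, only just passed the limit and lay between 0.14 and 1.29 under the alternatives. Marrow immature neutrophils had 1 of 4 (Ptges, higher, with 23 and 9 UMIs), beside 15.1% of genes, and megakaryocytes 1 of 5 (Hpgd, higher), beside 13.3%. Spleen dendritic cells type 2 had 1 of 4 (Hpgds, higher), beside 11.3% of genes, and dendritic cells type 1 had 1 of 3 (Ptgis, lower), beside 12%. With TMM scaling 41.8% of the genes past 1.5-fold in spleen neutrophils and 62.6% in marrow neutrophils were higher for KO, against 56.7% and 50.2% without.

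In tumor, 0 of 7 enzymes passed 1.5-fold in macrophages, where 6.86% of all genes did, and 0 of 6 in collagen- or keratin-expressing cells, where 5.22% did. Tumor monocytes had 2 of 6 past it, both lower for KO, where 19.1% of genes were: Ptgs1, at 17.4 CPM (23 UMIs) and 35.3 CPM (51 UMIs), and Hpgds, at 11 and 22 UMIs. The Ptgs1 log2 ratio there was -0.35 in thinned cells, not past 1.5-fold, in place of -0.98, and that of Hpgds changed sign to 0.21. Tumor neutrophils had 1 of 4 (Ptgs1, lower for KO, with 15 and 19 UMIs), beside 20.1% of genes, and 0 of 4 after TMM scaling, with which 52.5% of the genes past 1.5-fold were higher for KO, against 28.6% without. In spleen macrophages 0 of 6 passed it, beside 20.1% of genes, and 1 of 6 after TMM scaling, with which 60.1% of the genes past 1.5-fold were higher for KO, against 41.2% without. Tumor cells without a class had 1 of 7, Ptges, at 140.3 CPM for KO and 83.5 CPM for WT, a ratio of 1.68 (1.59 to 1.77), beside 6% of genes. Marrow stem and multipotent progenitors had 1 of 5 (Ptgs2, lower), beside 7.97% of genes, with 7 UMIs for KO and 43 for WT, a ratio of 0.435 (0.165 to 0.974) that changed sign to a log2 ratio of 0.33 when doublets were kept.

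**Figure D5:**
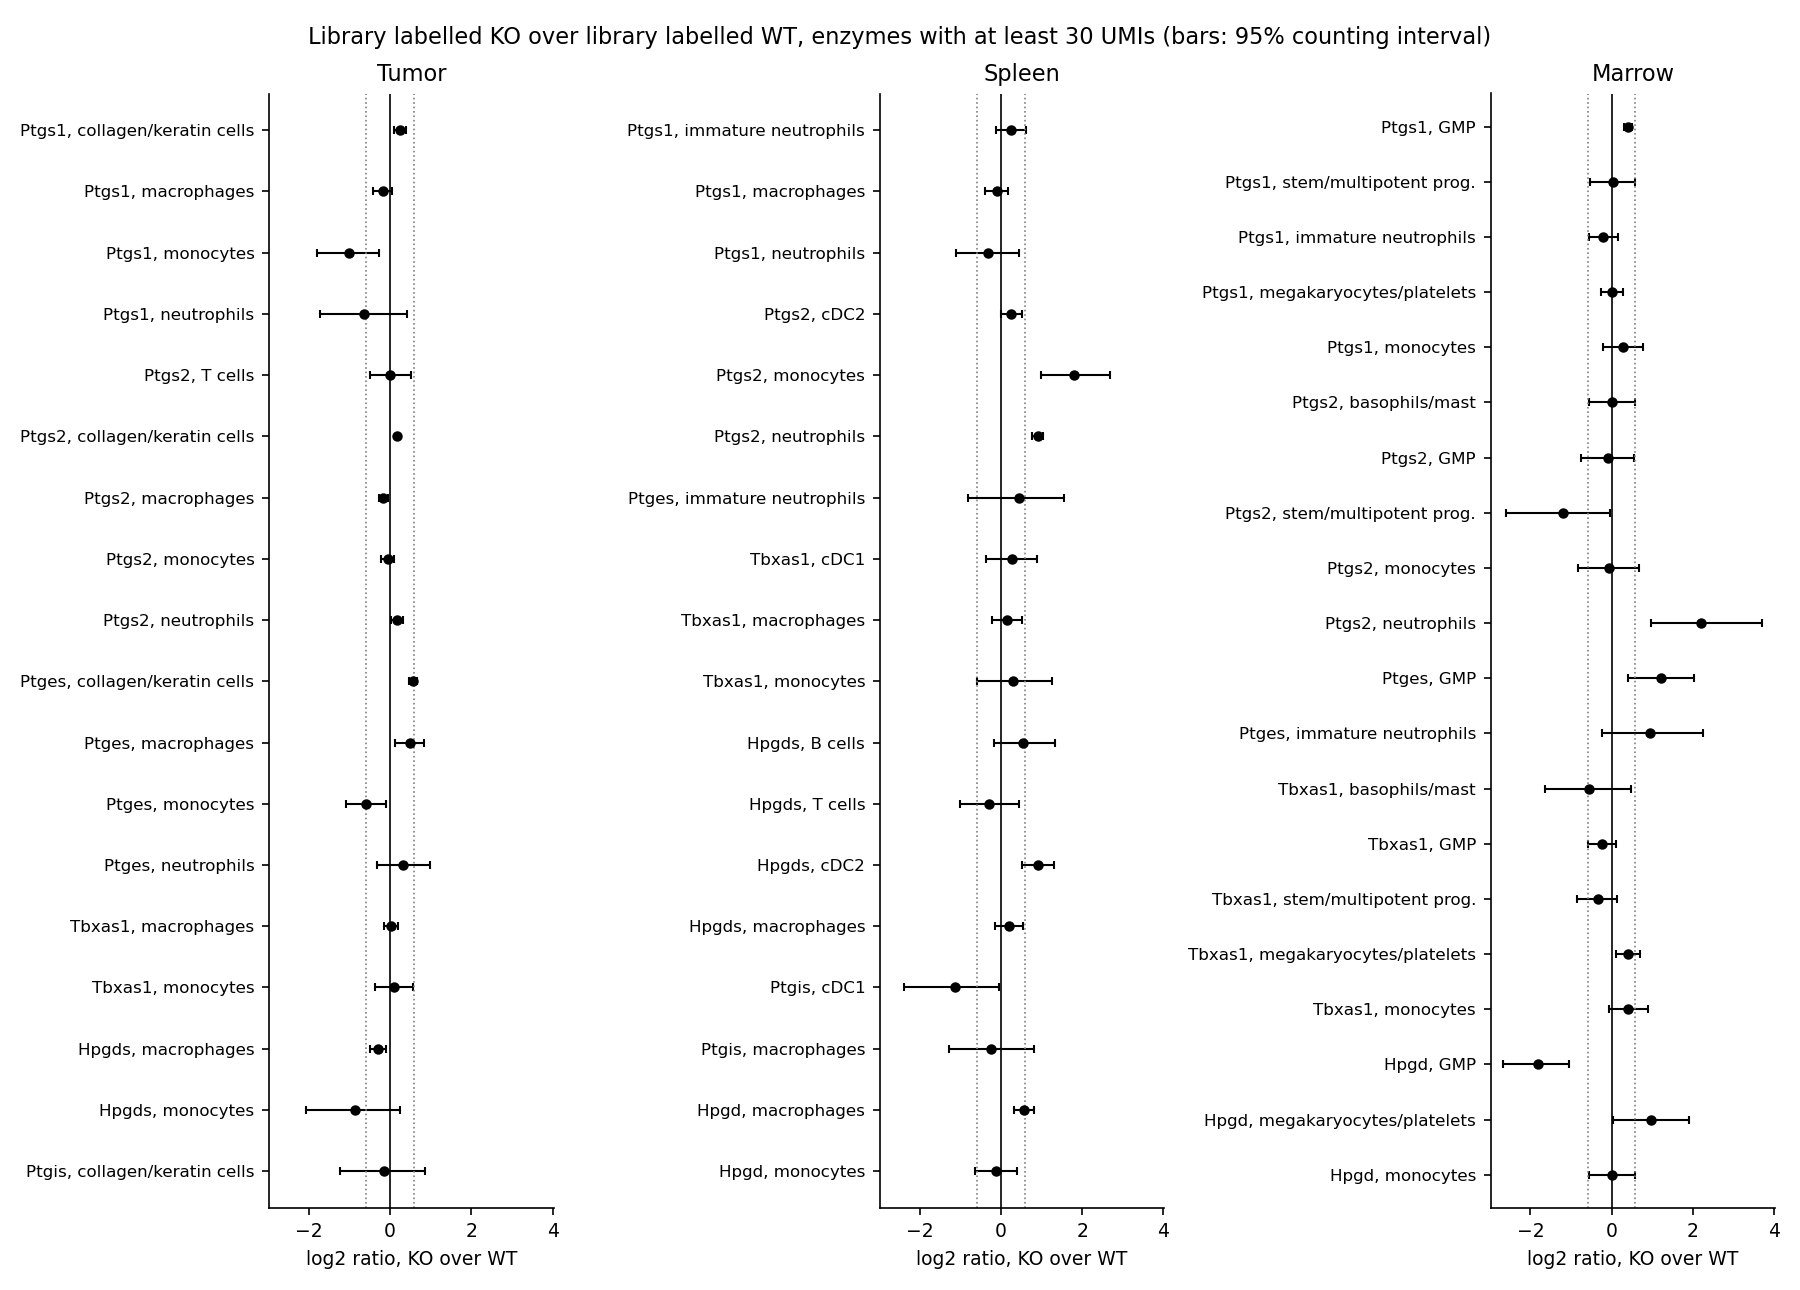
Log2 ratio of CPM, KO-labelled over WT-labelled library, without a pseudocount, by tissue and cell class, with 95% counting intervals and dotted lines at 1.5-fold. Drawn are all enzymes but Ptges2, Ptges3 and Ptgds, where at least 30 UMIs were found over both libraries and neither library lacked the gene. Regulatory T cells and cells without a class are left out. Ptgs2 is right of the 1.5-fold line in spleen neutrophils, spleen monocytes and marrow neutrophils, and most other points lie between the lines.

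Companion genes of arachidonic acid supply were counted in the same comparisons. In spleen neutrophils, where 14.7% of all genes were past 1.5-fold between the labels, and spleen macrophages, where 20.1% were, the counts are too small to be set apart from those shares. Of 15 genes of arachidonate release, 5 had at least 30 UMIs in spleen neutrophils, and 1 was past 1.5-fold and higher for KO (median log2 ratio -0.20, against 0.07 for all genes). It was Plaat3, a phospholipase, at 18.1 CPM for KO and 5.48 CPM for WT. Of 8 genes of re-esterification, which returns arachidonic acid to membranes, 6 were measured and 1 was lower, Lpcat3, at 8.70 and 19.0 CPM. Of 9 prostanoid receptors 3 were measured and 1 was higher, the prostaglandin E2 receptor Ptger4, at 10.5 and 5.995 CPM. In spleen macrophages 2 release genes were higher and 2 lower of 6 measured (median -0.11, all genes -0.07); among them the secreted phospholipase Pla2g2d had 56.4 and 21.5 CPM for KO and WT, Pla2g4a, the cytosolic phospholipase that feeds the cyclooxygenases, 98.3 and 191 CPM, and Anxa1, whose product inhibits phospholipase, 16.1 and 80.6 CPM.

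In collagen- or keratin-expressing tumor cells no companion gene passed 1.5-fold between the labels, where 5.22% of all genes did: 0 of 8 release genes, 0 of 8 re-esterification genes, 0 of 7 other reductases, synthases and transporters (median 0.37, all genes 0.00) and 0 of 2 receptors. Among them Gstm2, a glutathione transferase, had 231 CPM for KO and 171 CPM for WT, and the prostaglandin transporter Slco2a1 70.6 and 52.8 CPM. Between tissues, Pla2g4a had 42.0 and 36.4 CPM in tumor neutrophils labelled KO and WT and 3.26 and 3.25 CPM in spleen neutrophils. Tumor lymphocytes had 25.5 and 14.8 CPM of Pla2g4a, and the tumor neutrophils stood at 0.851 and 0.931 times the lymphocytes' ratio to collagen and keratin RNA, so no Pla2g4a beyond free RNA is read from them. Anxa1 was lower in tumor than in spleen neutrophils, at 547 and 623 CPM against 1849 and 2389 CPM, and higher in tumor than in spleen macrophages, at 623 and 602 CPM against 16.1 and 80.6 CPM. Tumor lymphocytes had 326 and 267 CPM of Anxa1. Prxl2b, a prostamide and prostaglandin F synthase, had 27.0 and 26.9 CPM in tumor macrophages and 255 and 255 CPM in spleen macrophages.

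Over 47 library and class sums of at least 50 cells, the genes whose log2 level ran most like each enzyme among 10282 genes were, for Ptgs2, Bnip3 (Pearson's r = 0.87), Igfbp6 and Map1b (0.85 each); for Ptges, Has2 (0.94), Bdnf and Sema3c (0.90 each); for Hpgd, Adgre4 (0.86), Spic (0.83) and Pparg (0.82); and for Ptgs1, Rtn3 (0.77), Fer (0.74) and Pla2g4a (0.69). Among the enzymes themselves the most alike pair was Ptgs2 and Ptges (0.72), then Tbxas1 and Hpgd (0.57), Tbxas1 and Hpgds (0.55) and Ptgs1 and Tbxas1 (0.54), and Ptgs1 and Ptgs2 were little alike (0.17). These sums share libraries, free RNA and depth, so the values describe the table and carry no test. In single cells thinned to 1000 UMIs, Ptgs1 and Hpgd were found together in 27 of 121 spleen macrophages labelled KO, where the product of their shares gives 22.5, and in 15 of 71 labelled WT, where it gives 10.3. Ptgs2 and Ptges were found together in 40 of 653 collagen- or keratin-expressing cells labelled KO and 62 of 1324 labelled WT, where the products give 43.5 and 55.8.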

How the data were processed

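Single-cell RNA was counted in 6 libraries, 1 per tissue and label. The authors deposited whole-number UMI counts per gene and barcode; Cell Ranger 6.1.0 is named per the file headers and Cell Ranger 6.0.0 with mm10 per the submitters' processing notes. Kits for either read end (5' and 3') appear per the labels' protocols, so the end read is not settled. Deposited libraries held 40377940 to 75873784 UMIs. A barcode was kept with 300 genes or more, 500 UMIs or more and no more than 10% mitochondrial UMIs, and doublets removed by simulated neighbours at 0.8% per 1000 barcodes. Cells were gated by the mean capped log level of marker lists with at least 3 markers found and a lead of 0.05. These gate settings, the joined carcinoma and fibroblast class and the leaving out of a tumor innate lymphoid gate, whose cells had little Ptprc, were chosen after seeing the data; the enzymes and gene lists were chosen with earlier results of these data known. Clusters (scanpy 1.11.5, Leiden) were made without the 10 enzymes.

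CPM scales a class sum to 1000000 UMIs. Intervals are exact Poisson for levels, Clopper-Pearson for shares and conditional binomial for ratios, at 95%. Log2 ratios carry a pseudocount of 1 CPM, and a gene was called past 1.5-fold on that scale with at least 30 UMIs over both libraries. Thinned cells hold 1000 UMIs, and shallower cells were left out. All members are named; of each companion list up to 4 genes with the largest log2 ratio are named, and for likeness the 3 genes with the highest correlation among those of at least 5 CPM on average. Alternatives were TMM scaling (edgeR 4.0.16), clusters as classes, 1 more marker, doublets kept, 20% mitochondrial UMIs, per-cell means, thinning and a smaller gene total. The scripts were tested on simulated data.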

Additional observations from a re-analysis of the deposited data

How the results depend on the processing

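Of 214 enzyme ratios, 82 were past 1.5-fold, and 64 of these stayed past it under every alternative listed in the methods that gave a value. The alternatives gave 1672 values over all 214 ratios, and a change of sign was counted only for the 82 ratios past 1.5-fold. Among the values of these 82, 4 changed sign, all log2 ratios of few UMIs. They were Hpgds in tumor monocytes, KO over WT, in thinned cells (0.21), and Hpgds in T cells, tumor WT over spleen WT, with classes from clusters (0.30). The others were Ptgs1 in monocytes, spleen WT over marrow WT, in thinned cells (0.20), and Ptgs2 in stem and multipotent progenitors, KO over WT, with doublets kept (0.33). With TMM scaling the tumor over spleen macrophage log2 ratios were -3.14 (KO) and -3.01 (WT) for Ptgs1 and -2.10 and -1.57 for Hpgds, and for Ptgs2 in neutrophils tumor over spleen gave 0.73 and 1.07 and tumor KO over WT 0.32. In thinned cells Ptgs2 in neutrophils gave 5.41 (marrow KO over WT), 7.84 (spleen WT over marrow WT), 0.84 (tumor KO over spleen KO) and 1.49 (tumor WT over spleen WT), and Hpgds in macrophages, tumor WT over spleen WT, -1.57; the 5.41 and 7.84 rest on a marrow WT sum of 0 UMIs. With per-cell means Ptgs2 in neutrophils gave 2.22 (spleen KO over marrow KO), 0.70 (spleen KO over WT) and 1.52 (tumor WT over spleen WT), Hpgd in macrophages, tumor WT over spleen WT, -9.34, and Ptges in collagen- or keratin-expressing cells, KO over WT, 0.71. With classes from clusters Ptgs2 in neutrophils gave 3.60 (spleen KO over marrow KO) and 0.69 (spleen KO over WT), and that Ptges ratio was 0.69. With 1 more marker it was 0.42, and Ptgs2 in neutrophils, tumor WT over spleen WT, was 1.63, or 1.96 with doublets kept. An alternative added after seeing the data took off the Ptgs2 that tumor T and natural killer cells hold per collagen and keratin RNA. The tumor neutrophil log2 ratios were then -0.36 (KO) and 0.094 (WT) over spleen and 0.44 for KO over WT. With T cells alone they were -0.60, -0.63 and 0.93, so tumor over spleen changed sign in 3 of these 4 values. The UMI total was not lowered with Ptgs2, so the tumor levels are low here, and no interval was computed. The cause of the other moves was not tested. At 2-fold the share of all genes past the limit was 5.42% (spleen macrophages) and 4.06% (spleen neutrophils) for KO over WT, 1.29% (collagen- or keratin-expressing cells) and 4.17% (tumor neutrophils), and 38.5% (KO) and 38.4% (WT) for tumor over spleen macrophages. At 10 UMIs it was 30.6% in spleen macrophages, and with no minimum 47.2% there and 42.6% in tumor neutrophils. Library levels over all deposited barcodes moved within their interval for 54 of 60 values. No paired analysis was possible because each group has 1 library, and for the same reason no library could be left out. Depth limits ratios that rest on few UMIs, such as those on the 6 Ptgs2 UMIs of marrow neutrophils labelled WT.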
